A study of Mus musculus with 12 samples.

Results

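The genes described here are the core machinery of macroautophagy: 37 genes chosen by name, of which 36 were measured among 22180 genes on mouse expression arrays. They comprise the ULK initiation complex, the class III PI3-kinase complex, the ATG9, ATG2 and WIPI proteins, the 2 conjugation systems with the ATG4 proteases, the ATG8 family, cargo receptors and the transcription factors Tfeb and Tfe3. Each gene was read from the probe set annotated with exactly that 1 symbol, the brightest by mean over the 12 arrays where a gene had more than 1. Optn, a ubiquitin-binding cargo receptor, was not analysed here.

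The cells were MLE12, a mouse line with features of distal lung epithelium that was immortalised by the SV40 large T antigen, so all groups carry that oncoprotein. The study asked how 2 long noncoding RNAs, NANCI and LL34, affect gene expression in these cells. Cultures at 60% confluency were exposed for 12 hours to lentivirus bearing a pLKO.1 shRNA plasmid and were harvested 65 hours later. The 4 groups of 3 arrays were NANCI shRNA, the scrambled shRNA run with it, LL34 shRNA, and the scrambled shRNA run with that one. The labels call the replicates biological without stating separate infections, and p-values then reflect only how far arrays of a group vary, which may be technical. Signals were deposited on the log2 scale, where a change of 1 is a doubling or halving. A change is called when its limma p-value, adjusted by the Benjamini-Hochberg method over 41345 probe sets, is under 0.05.

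Macroautophagy encloses cytoplasm in a double membrane, the autophagosome, and delivers it to the lysosome. The ULK kinase complex starts the process when nutrients are scarce, a lipid kinase complex around Beclin 1 marks the membrane with phosphatidylinositol phosphate, and a pair of ubiquitin-like conjugation systems attaches ATG8 proteins such as LC3 to lipid on the growing membrane. Receptors such as p62 tie cargo to LC3, and TFEB and TFE3 drive transcription of autophagy and lysosome genes. In alveolar type 2 cells of the lung the pathway is known to take part in the handling of lamellar bodies, the storage organelles of surfactant. The arrays measured RNA, not autophagic activity.

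Promoter sequences are shown for Atg9b, whose change after NANCI shRNA was the largest, and for Atg3 and Atg5, which hold the E-box core CACGTG that TFEB and TFE3 bind. They come from RefSeq on assembly GRCm38.p6 and run over the 250 bases before the annotated start, on the strand of the gene. In capitals are matches to CACGTG and to the longer TCACGTGA, the form of the CLEAR motif searched here, which contains CACGTG. Atg9b lies at chr5:24392144-24392393 on the minus strand, Atg3 at chr16:45158579-45158828 on the plus strand and Atg5 at chr10:44268089-44268338 on the plus strand.
Atg9b: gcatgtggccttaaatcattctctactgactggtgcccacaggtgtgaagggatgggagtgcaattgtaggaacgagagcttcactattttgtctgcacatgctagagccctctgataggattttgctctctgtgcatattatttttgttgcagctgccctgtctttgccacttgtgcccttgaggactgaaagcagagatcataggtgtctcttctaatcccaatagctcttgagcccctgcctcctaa
Atg3: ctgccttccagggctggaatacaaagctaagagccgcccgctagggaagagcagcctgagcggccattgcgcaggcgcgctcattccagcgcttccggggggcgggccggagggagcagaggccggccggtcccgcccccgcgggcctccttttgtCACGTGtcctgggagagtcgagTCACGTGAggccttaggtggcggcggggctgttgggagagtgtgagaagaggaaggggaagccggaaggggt
Atg5: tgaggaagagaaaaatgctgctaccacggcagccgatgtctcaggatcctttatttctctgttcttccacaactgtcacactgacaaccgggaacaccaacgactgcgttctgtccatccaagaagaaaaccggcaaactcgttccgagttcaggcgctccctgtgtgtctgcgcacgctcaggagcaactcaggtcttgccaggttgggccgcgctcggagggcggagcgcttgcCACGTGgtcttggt
The Atg9b window had a GC content of 47.6%, the Atg5 window 56.4% and the Atg3 window 68.0%. Of the 37 members, 31 had a window in the RefSeq table. CACGTG, searched on both strands, was present in 3 of these 31 (9.68%), namely Atg3, Atg5 and Atg7 (whose window lies wholly inside the annotated span of the gene), and in 6.86% of 27025 genes with a window. After NANCI shRNA the RNA of Atg3 and Atg5 rose and that of Atg7 fell. Atg3 held it at 94 to 89 and at 71 to 66 bases before the start. The latter lay within a match to TCACGTGA, which occurred in 0.907% of all genes. In Atg5 the match lay 14 to 9 bases before the start. It fell within the last 17 bases of that window, which lie inside the annotated span of the gene. The antioxidant response element core TGACNNNGC was found in Atg13 and Ulk2, 6.45% of the member windows against 11.5% of all genes. In Ulk2, 242 of the 250 window bases, with the match among them, lay inside the annotated span of the gene. The element TGATGCAA was found in none of the member windows, against 0.918% of all genes. The last 2 motifs are not marked in the sequences above. A match describes letters in this window, not a bound site.

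The targeted RNA was lower in the NANCI shRNA group: Sfta3-ps, the gene listed with the synonym Nanci, fell to 13.3% of its scrambled level (limma adjusted p = 1.72e-07). Its neighbour Nkx2-1, a lung transcription factor, fell to 50.1% (adjusted p = 4.95e-06). After LL34 shRNA, Sfta3-ps was at 62.6% (adjusted p = 0.00284) and Nkx2-1 at 83.2% (adjusted p = 0.0327) of their scrambled levels; no probe set carries the name LL34, so that knockdown was not checked. Array medians were 6.84 to 6.88 in the NANCI set and 6.54 to 6.61 in the LL34 set, as if each set of 6 had been normalized apart. Of 11 distal lung epithelial markers, 6 in the NANCI set and 7 in the LL34 set had a group mean above their array median. Sftpb, Sftpc, Abca3 and Cdh1 were among these, while Sftpd and Lamp3 were not. The marker means ran from 5.60 to 11.13 in the NANCI scrambled group and from 5.57 to 10.45 in its shRNA group, and from 4.89 to 11.38 and 4.85 to 10.71 in the LL34 groups. Among these markers, 4 fell, Nkx2-1 included, and none rose after NANCI shRNA, and 2 rose and 3 fell after LL34 shRNA. That is 36.4% and 45.5% called, against 26.8% and 20% of all genes. Of genes at or above the median probe-set level, 44.7% and 33.6% were called. Fibroblast markers were above the median for 5 or 6 of 8, with group means from 4.57 to 12.90, led by Dcn, which alone of the 8 changed, downward after NANCI shRNA (adjusted p = 8.05e-06). Endothelial markers were above it for at most 1 of 5, with group means from 5.65 to 8.03, and 1, Tek, fell in each knockdown. Leukocyte markers were above it for 1 of 6, with group means from 5.07 to 9.35. That one was Cd68, a lysosomal glycoprotein, which rose after NANCI shRNA (adjusted p = 0.000145), while the leukocyte marker Ptprc stayed between 5.07 and 5.46 in all groups. The part of any of these genes in the results below was not tested, and in bulk RNA fewer cells of a type and less RNA per cell cannot be told apart.

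In cells given NANCI shRNA, the autophagy genes moved in both directions. Of the 36 measured, 11 rose, 5 fell and 20 did not pass the test. Of all probe sets, 10.3% rose and 9.6% fell. The called share of the members was 44.4%, against 19.9% of all probe sets and 26.8% of all genes. All 36 lie at or above the median probe-set level, and among genes at or above that level 44.7% were called, so the members' share was at the background of genes of this brightness. The median member change was 0.11, against 0.0042 over all genes and 0.0039 over genes at or above the median level. Atg9b, a lipid scramblase of the autophagosome, rose 4.56-fold, and the conjugation gene Atg10 dropped to 37.6% of its scrambled level. They were the only members called with a change of at least 1 on the log2 scale, a size reached by 1.85% of all genes. Called changes of at least 0.5 were found in 9 members, against 11.2% of all genes: besides these 2, rises in Atg5, Wipi2, Atg9a, Atg101 and Gabarapl1 and falls in Atg7 and Map1lc3a. The 3 treated and the 3 scrambled arrays did not overlap in 24 of the 36 members, 18 higher and 6 lower, against 33% of all probe sets. Sizes and overlap were not set against genes at or above the median level alone, so no excess over genes of this brightness is read from them.

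After LL34 shRNA, the called members were mostly higher. Here 12 of the 36 rose, 3 fell and 21 did not pass the test, while 9.7% of all probe sets rose and 6.66% fell. The called share was 41.7%, against 16.4% of all probe sets, 20.0% of all genes and 33.6% of genes at or above the median level. The median member change was 0.028, against −0.0195 over all genes, −0.0002 over genes at or above the median level and 0.0351 over all probe sets at or above it. Atg4b, a protease that trims and delipidates ATG8 proteins, rose 1.61-fold, and Wipi2 and Atg13 rose 1.50-fold and 1.41-fold. Wipi1 was lowest, at 71.3% of its scrambled level. No called member changed by 1 or more on the log2 scale, and Atg4b, Wipi2 and Atg101 changed by at least 0.5, a size called in 6.67% of all genes. Arrays did not overlap between the groups in 22 members, 15 higher and 7 lower, against 31% of all probe sets. Here too, sizes and overlap were not set against genes of this brightness alone. Against all 6 scrambled arrays taken as 1 control group, 4 of the 36 members were called, 3 higher and 1 lower, against 10.4% of all probe sets.

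**Figure D1:**
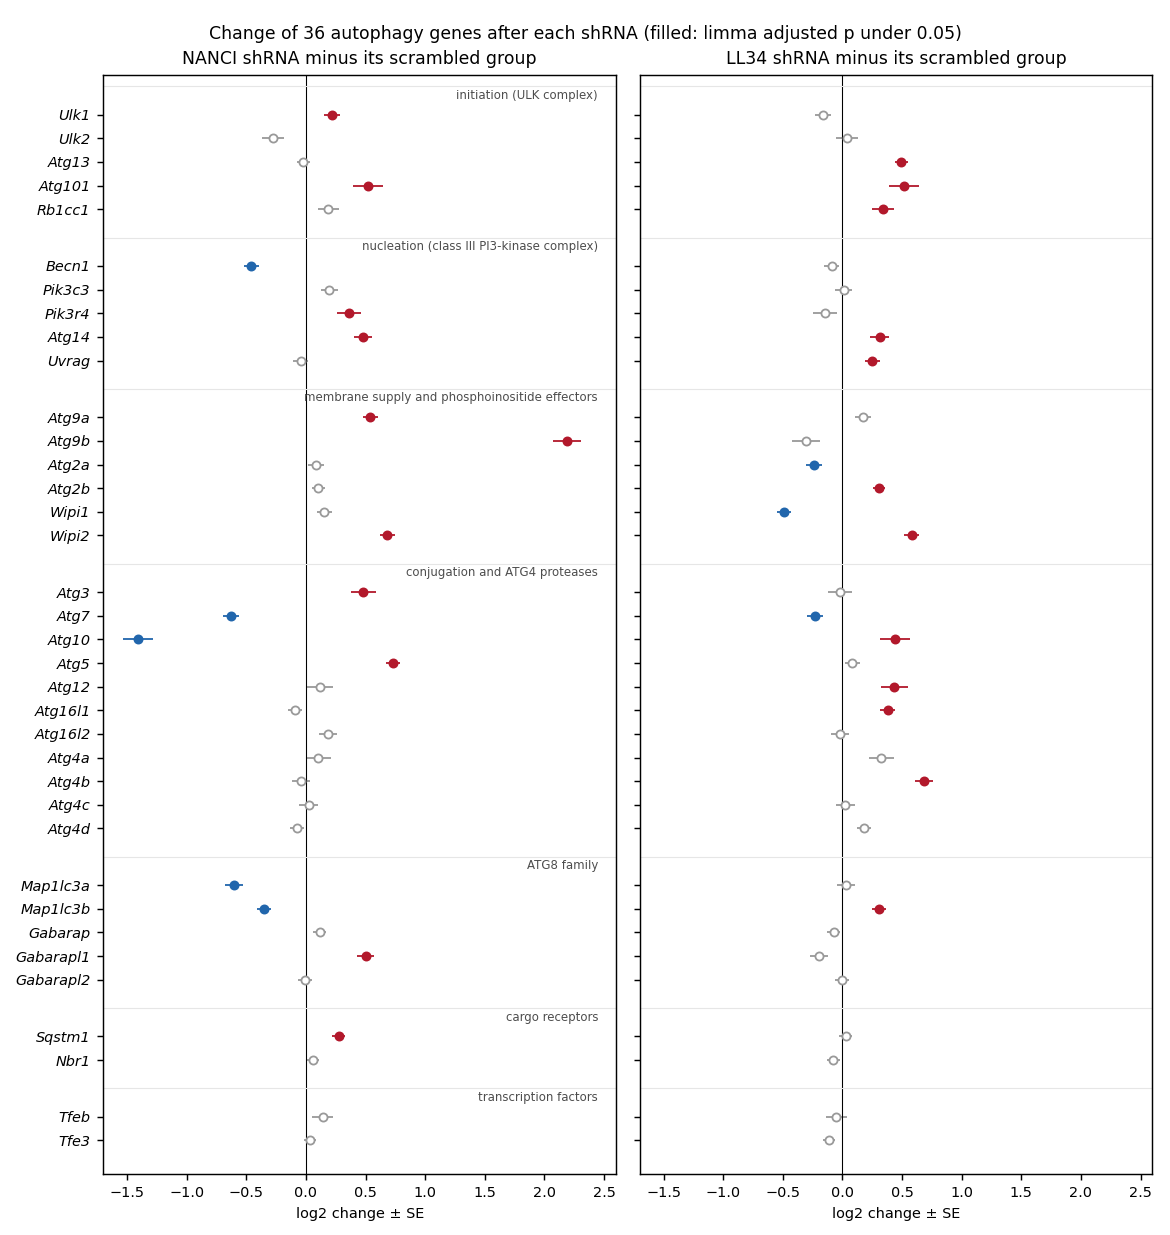
Change in log2 signal, shRNA minus scrambled, of the 36 measured members grouped by role, for NANCI shRNA and LL34 shRNA; bars are ±SE of the limma fit on 3 arrays per group and filled points have an adjusted p under 0.05. Atg9b at 2.19 and Atg10 at −1.41 stand farthest from 0 after NANCI shRNA, and Atg4b at 0.69 after LL34 shRNA.

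The initiation complex consists of the kinase ULK1 or ULK2 with ATG13, ATG101 and the scaffold FIP200, encoded by Rb1cc1. Of its 5 genes, 2 rose after NANCI shRNA and 3 after LL34 shRNA, and none fell. That is 40% and 60% called, against 44.7% and 33.6% of genes at or above the median level. The shares of the role groups below are to be read beside the same background. Atg101, which stabilises ATG13, rose by the same amount in both. Its log2 signal was 9.18, 9.32 and 9.49 with the NANCI-set scrambled shRNA and 10.07, 9.75 and 9.74 with NANCI shRNA. The LL34-set scrambled arrays gave 8.94, 9.02 and 8.97 and the LL34 shRNA arrays 9.47, 9.28 and 9.73. All treated arrays of either set lay above their own scrambled arrays. The change was 0.52 (SE 0.126) in each set, with an adjusted p of 0.0122 for NANCI and 0.016 for LL34, and the difference between the changes, given here and below as NANCI minus LL34, was 0.00 (SE 0.178, adjusted p = 0.998). Each call rested on few arrays: the NANCI one was lost without NANCI_shRNA replicate 1 (adjusted p = 0.0537) or NANCI_control replicate 1 (0.0553), and the LL34 one without LL34_shRNA replicate 3 (0.0656) and against all 6 scrambled arrays (0.34, adjusted p = 0.149).

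Atg13, the adaptor that links the kinase to FIP200, was called in the LL34 set and not in the NANCI set. It read 10.38, 10.45 and 10.31 on the scrambled arrays and 10.85, 10.90 and 10.87 after LL34 shRNA, without overlap. That is a rise of 0.49 (SE 0.0553, adjusted p = 0.000151). Set against all 6 scrambled arrays the rise was 0.34 (adjusted p = 0.0543). In the NANCI set it was 10.74, 10.68 and 10.68 in scrambled and 10.70, 10.61 and 10.71 in treated cells, a change of −0.02 (adjusted p = 0.869), and the 2 changes, NANCI minus LL34, differed by −0.52 (SE 0.0782, adjusted p = 0.000735).

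Ulk1, the initiating kinase itself, gave 11.02, 11.15 and 11.14 in scrambled and 11.37, 11.32 and 11.27 in NANCI shRNA cells. The groups were apart and the rise was 0.22 (SE 0.067, adjusted p = 0.0411), but it was lost under 13 of 21 alternative settings. These include leaving out any 1 of the 6 NANCI-set arrays, LL34_shRNA replicate 1 or LL34_control replicate 1 or 2, with adjusted p-values up to 0.152. With LL34 shRNA it read 10.77, 10.64 and 10.84 against 10.95, 10.94 and 10.85 in scrambled cells, a change of −0.16 (adjusted p = 0.139). The difference between its changes, 0.38, was called (adjusted p = 0.0154). Ulk2, the second kinase, measured −0.28 after NANCI shRNA (SE 0.0935, adjusted p = 0.0624) and 0.04 after LL34 shRNA (adjusted p = 0.856). The NANCI value of Ulk2 passed under 7 of 21 settings: when NANCI_control replicate 2 (adjusted p = 0.0356), LL34_control replicate 1 (0.0445) or LL34_control replicate 3 (0.0198) was left out, with quantile normalization (0.0153), without dim probe sets (0.0342), with array weights (0.00906) and against all 6 scrambled arrays (0.0497).

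Rb1cc1 stood at 10.09, 10.06 and 9.73 on the LL34-set scrambled arrays and at 10.31, 10.32 and 10.27 after LL34 shRNA. The treated arrays were all higher, by 0.34 on average (SE 0.0891, adjusted p = 0.0237). Leaving out LL34_shRNA replicate 1, 2 or 3 ended that call (adjusted p = 0.075, 0.0719 and 0.0568), as did a fit of the LL34 set alone (0.0981). With NANCI shRNA it gave 9.75, 9.90 and 9.83 against 9.71, 9.60 and 9.61, a change of 0.19 (adjusted p = 0.202). Without LL34_control replicate 3 that value had an adjusted p of 0.0349, through the shared estimate of spread. The changes in the 2 sets were not shown to differ (−0.15, adjusted p = 0.504).

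The nucleation complex holds the lipid kinase VPS34 (Pik3c3), its scaffold VPS15 (Pik3r4), Beclin 1 (Becn1) and either ATG14, which directs it to the autophagosome, or UVRAG, which directs it to endosomes. Among its 5 genes, 2 rose and 1 fell after NANCI shRNA (60% called), and 2 rose after LL34 shRNA (40%). Becn1 was the one that fell. It read 10.27, 10.30 and 10.40 in scrambled and 9.90, 9.77 and 9.92 in NANCI shRNA cells. The lowest scrambled array was above the highest treated one, and the fall was to 72.8% of the scrambled level (log2 −0.46, SE 0.0643, adjusted p = 0.000358). In the LL34 set, Becn1 gave 9.89, 9.94 and 9.82 in scrambled and 9.76, 9.77 and 9.85 in treated cells. That change of −0.09 did not pass (adjusted p = 0.431), and the 2 changes differed by −0.37 (SE 0.0909, adjusted p = 0.0151). Both LL34-set groups were near the level of the NANCI shRNA group on the deposited scale, and against all 6 scrambled arrays the NANCI change was −0.24 (adjusted p = 0.231).

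Atg14 rose in both knockdowns. Its scrambled arrays gave 9.63, 9.66 and 9.74 in the NANCI set, and NANCI shRNA gave 10.19, 10.07 and 10.21, an increase of 0.48 (SE 0.0765, adjusted p = 0.000864). In the LL34 set, scrambled arrays at 9.62, 9.59 and 9.35 rose to 9.83, 9.81 and 9.86, or 0.31 (SE 0.0765, adjusted p = 0.017). Neither pair of groups overlapped. The LL34 call was lost without LL34_shRNA replicate 1 (adjusted p = 0.0531) or 3 (0.0643). It was also lost in a fit of the LL34 set alone (0.0693) and against all 6 scrambled arrays (0.23, adjusted p = 0.109). The changes were not shown to differ (0.17, SE 0.108, adjusted p = 0.366).

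Uvrag, the endosomal partner of Beclin 1, rose by 0.25 after LL34 shRNA (SE 0.0655, adjusted p = 0.0228) and measured −0.05 after NANCI shRNA (adjusted p = 0.759). Its LL34 call was lost without LL34_shRNA replicate 1 (adjusted p = 0.0756), 2 (0.0535) or 3 (0.0735). It was also lost without LL34_control replicate 2 (0.0722) or 3 (0.061), and with arrays centred on their medians (0.0682). Pik3r4 rose by 0.36 after NANCI shRNA (SE 0.102, adjusted p = 0.0283), a call lost without NANCI_shRNA replicate 1 (adjusted p = 0.111) or 3 (0.0597) or NANCI_control replicate 1 (0.104) or 2 (0.0605). After LL34 shRNA Pik3r4 measured −0.15 (adjusted p = 0.43). The catalytic gene Pik3c3 was called in neither set, at 0.20 (adjusted p = 0.0847) and 0.01 (adjusted p = 0.961). Its NANCI value passed with quantile normalization (0.0451) and without dim probe sets (0.0459).

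ATG9 proteins are the transmembrane scramblases of the vesicles that seed the autophagosome, ATG2 proteins transfer lipid into it, and WIPI proteins read the phosphoinositide made by the nucleation complex. These 6 genes gave 3 rises after NANCI shRNA (50% called) and 2 rises and 2 falls after LL34 shRNA (66.7%). Atg9b had the largest change of any member. It read 7.20, 7.30 and 7.00 in scrambled cells and 9.38, 9.20 and 9.48 after NANCI shRNA. All treated arrays lay more than 1 log2 unit above all scrambled ones, and the rise was 2.19 (SE 0.118, adjusted p = 7.32e-07), the 30th largest change of 41345 probe sets by size. LL34 shRNA gave 7.30, 7.44 and 7.00 against 7.62, 7.52 and 7.52, all lower than scrambled. That change of −0.31 (SE 0.118) did not pass (adjusted p = 0.114), but did when all arrays were quantile-normalized together (−0.37, adjusted p = 0.0421). The 2 changes of Atg9b differed by 2.50 (SE 0.167, adjusted p = 3.56e-06). The annotated span of Atg9b overlaps that of Nos3, the endothelial nitric oxide synthase gene, tail to tail, and the strand the array reads was not stated in the labels. Nos3 measured −0.04 after NANCI shRNA (adjusted p = 0.881) and −0.20 after LL34 shRNA (adjusted p = 0.215).

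Atg9a, the broadly expressed ATG9, rose as well after NANCI shRNA. Scrambled arrays at 9.09, 9.13 and 9.20 became 9.73, 9.70 and 9.61, a rise of 0.54 (SE 0.0644, adjusted p = 0.000114) with no overlap. LL34 shRNA gave 9.14, 9.13 and 9.24 against 9.02, 9.08 and 8.91, which is 0.17 (adjusted p = 0.106). Its changes differed by 0.37 (SE 0.091, adjusted p = 0.0147).

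Wipi2, the effector that recruits the ATG16L1 complex, rose in both. It went from 10.70, 10.80 and 10.78 to 11.54, 11.32 and 11.46 with NANCI shRNA, and from 10.35, 10.37 and 10.37 to 10.92, 10.93 and 10.99 with LL34 shRNA. Neither pair of groups overlapped. The rises were 0.68 (SE 0.0628, adjusted p = 1.96e-05) and 0.58 (SE 0.0628, adjusted p = 0.00012), and they were not shown to differ (0.10, SE 0.0889, adjusted p = 0.553). With all 6 scrambled arrays as control the LL34 rise was 0.38 (adjusted p = 0.063).

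Wipi1, its relative, went the other way in the LL34 set. There it read 9.75, 9.86 and 9.68 in scrambled and 9.26, 9.34 and 9.23 in treated cells, a clear separation and a fall of 0.49 (SE 0.0598, adjusted p = 0.000268). With NANCI shRNA it was 9.62, 9.57 and 9.58 against 9.49, 9.43 and 9.39, which is 0.16 (adjusted p = 0.105). The difference between its changes was 0.64 (SE 0.0846, adjusted p = 0.000294). Its LL34 change against all 6 scrambled arrays was −0.32 (adjusted p = 0.072).

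The lipid-transfer genes both moved in the LL34 set, in opposite directions. Atg2b rose by 0.31 (SE 0.0505, adjusted p = 0.00161), or by 0.10 against all 6 scrambled arrays (adjusted p = 0.551), and Atg2a dropped to 84.7% of its scrambled level (log2 −0.24, SE 0.0666, adjusted p = 0.0311). The Atg2a call did not survive the loss of any 1 of the 6 LL34-set arrays (adjusted p = 0.0631 to 0.104). After NANCI shRNA, Atg2a measured 0.08 (adjusted p = 0.504) and Atg2b 0.11 (adjusted p = 0.206).

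**Figure D2:**
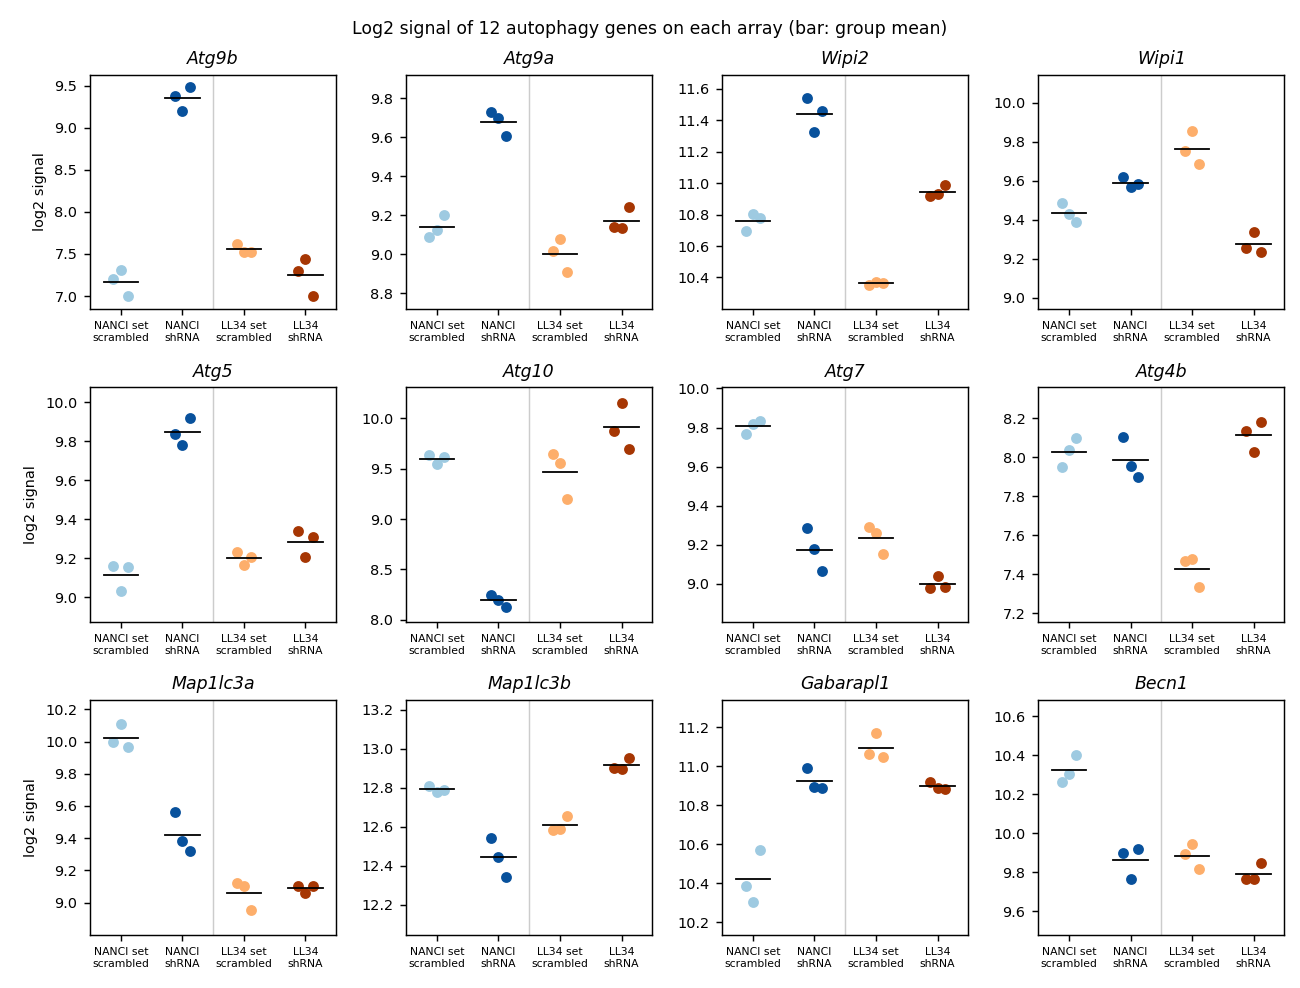
Log2 signal of 12 members on each of the 12 arrays, by group; points are arrays and bars are the mean of the 3 arrays in a group. NANCI shRNA arrays of Atg9b sit at 9.20 to 9.48, above the other 3 groups at 7.00 to 7.62, and those of Atg10 at 8.13 to 8.24, below all others at 9.20 to 10.16.

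The conjugation systems work in sequence. ATG7 is the activating enzyme of both, ATG10 transfers ATG12 to ATG5, ATG3 transfers ATG8 proteins to phosphatidylethanolamine, and ATG16L1 places the ATG12-ATG5 conjugate on the membrane. ATG4 proteases prepare and recycle the ATG8 proteins. Of these 11 genes, 2 rose and 2 fell after NANCI shRNA (36.4% called), and 4 rose and 1 fell after LL34 shRNA (45.5%).

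Atg10 showed opposite changes in the 2 sets. It gave 9.64, 9.55 and 9.61 in scrambled cells and 8.24, 8.20 and 8.13 after NANCI shRNA. The groups were more than 1 log2 unit apart, and the fall was 1.41 (SE 0.126, adjusted p = 1.57e-05). LL34 shRNA gave 9.88, 10.16 and 9.70 against 9.65, 9.56 and 9.20, which is a rise of 0.44 (SE 0.126, adjusted p = 0.0358). The LL34 rise was lost under 11 of 21 settings. Among them were leaving out LL34_shRNA replicate 1 (adjusted p = 0.081) or 2 (0.128), LL34_control replicate 2 (0.0539) or 3 (0.103), and NANCI_shRNA replicate 1 or 2 or NANCI_control replicate 1 or 3 (0.05 to 0.0525). It was also lost with centred arrays (0.0569), in the LL34 set alone (0.151) and against all 6 scrambled arrays (0.0631). The difference of −1.85 (SE 0.178) was called with an adjusted p of 3.61e-05.

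Atg7 was the member that fell in both. NANCI shRNA took it from 9.77, 9.82 and 9.83 to 9.28, 9.18 and 9.06, a fall to 64.5% (log2 −0.63, SE 0.066, adjusted p = 4.5e-05). LL34 shRNA took it from 9.29, 9.26 and 9.15 to 8.98, 9.04 and 8.98, or 85.1% (log2 −0.23, SE 0.066, adjusted p = 0.0342). Neither pair overlapped, and the NANCI fall was larger by the test of the difference (−0.40, SE 0.0933, adjusted p = 0.0111). The LL34 call was lost without any 1 of the LL34_shRNA arrays (adjusted p = 0.0591 to 0.109). It was also lost without LL34_control replicate 1 (0.0999) or 2 (0.101), and in the LL34 set alone (0.0593). Against all 6 scrambled arrays Atg7 measured −0.34 after NANCI shRNA (adjusted p = 0.172) and −0.52 after LL34 shRNA (adjusted p = 0.059).

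The 2 remaining NANCI calls in the conjugation genes were rises. Atg5 moved from 9.16, 9.03 and 9.15 to 9.84, 9.78 and 9.92, an increase of 0.73 (SE 0.0618, adjusted p = 1.08e-05) with no overlap. Its LL34-set arrays stayed together, at 9.23, 9.16 and 9.21 in scrambled and 9.34, 9.21 and 9.31 in treated cells (0.08, adjusted p = 0.455), and its changes differed by 0.65 (SE 0.0874, adjusted p = 0.000352). Atg3 rose by 0.48 after NANCI shRNA (SE 0.104, adjusted p = 0.00631), from 10.77, 10.69 and 10.85 to 11.19, 11.09 and 11.48, and measured −0.02 after LL34 shRNA (adjusted p = 0.938). Atg5 RNA was thus higher in the same cultures in which RNA of Atg10 and Atg7, whose enzymes join ATG12 to it, was lower.

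Atg4b led the LL34 rises. It read 7.47, 7.48 and 7.34 in scrambled and 8.14, 8.03 and 8.18 after LL34 shRNA, with all treated arrays higher (0.69, SE 0.0743, adjusted p = 0.000121). In the NANCI set the values mixed, at 7.95, 8.04 and 8.10 in scrambled and 8.11, 7.96 and 7.90 in treated cells (−0.04, adjusted p = 0.815). The difference was called (−0.73, SE 0.105, adjusted p = 0.000544). The LL34-treated arrays, at 8.03 to 8.18, were near both NANCI-set groups on the deposited scale, and against all 6 scrambled arrays the rise was 0.39 (adjusted p = 0.157).

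Atg16l1 gave 9.43, 9.41 and 9.28 in scrambled and 9.76, 9.73 and 9.76 in LL34 shRNA cells, a rise of 0.38 (SE 0.0603, adjusted p = 0.00138) with no overlap. With NANCI shRNA it was 9.19, 9.05 and 9.12 against 9.23, 9.15 and 9.26 (−0.09, adjusted p = 0.386), and the changes differed by −0.47 (SE 0.0853, adjusted p = 0.00239). It was the one LL34 call that passed under every one of the 21 alternative settings.

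Atg12, the ubiquitin-like protein itself, went from 9.69, 9.54 and 9.33 to 10.05, 9.86 and 9.95 with LL34 shRNA (0.44, SE 0.111, adjusted p = 0.0203), all treated arrays being higher. That call was lost without LL34_shRNA replicate 1 (adjusted p = 0.0837) or 3 (0.0595) or LL34_control replicate 2 (0.0504) or 3 (0.0646). It was also lost in a fit of the LL34 set alone (0.05) and against all 6 scrambled arrays (0.145). NANCI shRNA gave 9.96, 9.75 and 10.03 against 9.71, 9.72 and 9.97, which overlap (0.12, adjusted p = 0.591), and its changes were not shown to differ (−0.32, adjusted p = 0.216).

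The other 4 genes of this step passed in neither set. Atg16l2, a relative of Atg16l1, measured 0.18 (adjusted p = 0.14) after NANCI shRNA and −0.02 (adjusted p = 0.917) after LL34 shRNA. The proteases Atg4a, Atg4c and Atg4d measured 0.10, 0.02 and −0.07 after NANCI shRNA, with adjusted p from 0.496 to 0.909. After LL34 shRNA they measured 0.33 (adjusted p = 0.0544), 0.02 (0.906) and 0.18 (0.0617). The Atg4a value passed under 7 of 21 settings (adjusted p = 0.0174 to 0.0476), among them without LL34_control replicate 1 (0.0414) or NANCI_control replicate 2 (0.0174) or 3 (0.0476). The Atg4d value passed under 3, without NANCI_shRNA replicate 1 (0.0468), without dim probe sets (0.032) and with array weights (0.0337).

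The ATG8 proteins coat the autophagosome and bind cargo receptors. Of the 5 genes, 1 rose and 2 fell after NANCI shRNA (60% called), and 1 rose after LL34 shRNA (20%). Map1lc3b, which encodes LC3B, was among the brightest members, and its changes were opposite. It gave 12.81, 12.78 and 12.79 in scrambled and 12.54, 12.44 and 12.34 in NANCI shRNA cells, a fall to 78.5% (log2 −0.35, SE 0.0583, adjusted p = 0.00117). With LL34 shRNA it was 12.90, 12.90 and 12.95 against 12.58, 12.59 and 12.65, a rise of 0.31 (SE 0.0583, adjusted p = 0.00396). Neither pair overlapped, and the changes differed by −0.66 (SE 0.0825, adjusted p = 0.000211). Against all 6 scrambled arrays the LL34 rise was 0.22 (adjusted p = 0.106).

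Map1lc3a, encoding LC3A, also had less RNA after NANCI shRNA: 9.56, 9.38 and 9.32 against 10.00, 10.11 and 9.96 in scrambled cells. The groups were apart and the fall left 65.9% (log2 −0.60, SE 0.0746, adjusted p = 0.00015). The LL34-set arrays were lower throughout, at 9.12, 9.11 and 8.95 in scrambled and 9.11, 9.06 and 9.11 in treated cells (0.03, adjusted p = 0.858), and the changes differed by −0.63 (SE 0.106, adjusted p = 0.00142). The 2 scrambled groups stood apart, and the NANCI change against all 6 scrambled arrays was −0.12 (adjusted p = 0.758).

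Gabarapl1 was the ATG8 gene that rose after NANCI shRNA, from 10.39, 10.30 and 10.57 to 10.99, 10.89 and 10.89 (0.50, SE 0.0721, adjusted p = 0.000422), again with no overlap. Its LL34-set arrays were 11.06, 11.17 and 11.04 in scrambled and 10.92, 10.89 and 10.88 in treated cells. All treated arrays were lower there, but the change of −0.20 did not pass (adjusted p = 0.0962; 0.0388 with quantile normalization and 0.0327 with array weights), and the changes differed by 0.70 (SE 0.102, adjusted p = 0.000579). Against all 6 scrambled arrays its NANCI change was 0.17 (adjusted p = 0.536). Gabarap measured 0.11 (adjusted p = 0.203) and −0.07 (adjusted p = 0.457) after NANCI and LL34 shRNA, and its dimmer second probe set 0.20 (adjusted p = 0.703) and 0.23 (adjusted p = 0.637). Gabarapl2 measured 0.00 in each (adjusted p = 0.975 and 1).

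Sqstm1, which encodes the cargo receptor p62, was brighter after NANCI shRNA: 12.89, 12.84 and 12.88 against 12.53, 12.61 and 12.64. All treated arrays were higher, by 0.27 (SE 0.0542, adjusted p = 0.00372). With LL34 shRNA, 12.31, 12.23 and 12.28 against 12.25, 12.19 and 12.30 overlapped (0.03, adjusted p = 0.833). The difference of 0.25 (SE 0.0767) was called with an adjusted p of 0.0451, and was lost when any array other than LL34_control replicate 2 was left out (adjusted p = 0.0532 to 0.106). Nbr1, a related receptor, measured 0.06 (adjusted p = 0.575) and −0.08 (adjusted p = 0.414).

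The 2 transcription factor genes were not called in either knockdown. Tfeb, the dimmest member, gave 6.89, 7.17 and 6.99 in scrambled and 7.14, 7.12 and 7.20 in NANCI shRNA cells, which overlap (0.14, SE 0.0862, adjusted p = 0.352). In the LL34 set it was 6.98, 6.79 and 7.09 and then 6.91, 6.89 and 6.90 (−0.05, adjusted p = 0.779). Tfe3 read 10.69, 10.68 and 10.75 in scrambled and 10.79, 10.71 and 10.71 in NANCI shRNA cells (0.03, SE 0.0492, adjusted p = 0.777). LL34 shRNA arrays of Tfe3, at 10.28, 10.26 and 10.30, were all below the scrambled ones at 10.41, 10.40 and 10.37, yet the change of −0.12 did not pass (adjusted p = 0.157).

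Set side by side, the 2 knockdowns, which share no array, changed in the same direction for some members and opposed each other for others. Atg101, Atg14 and Wipi2 rose in both and Atg7 fell in both, while Atg10 and Map1lc3b fell after NANCI shRNA and rose after LL34 shRNA. Calls in the same direction in both were made for 5.28% of all genes and in opposite directions for 5.52%. These 2 shares were not taken over genes at or above the median level alone, where calls in each knockdown were more frequent. A further 8 members rose and 2 fell with NANCI shRNA alone passing, and 7 rose and 2 fell with LL34 shRNA alone passing. The shares of all genes called in 1 knockdown alone were not taken, so no excess is read from these counts. The difference between the changes was tested for each member: 19 of 36 passed (52.8%), against 18.8% of all probe sets, 24.4% of all genes and 40.7% of genes at or above the median level. Over all probe sets it was called higher for NANCI in 8.63% and lower in 10.2%. The NANCI change was the higher in 10 of the 19, and these comprised all 8 members called as higher after NANCI shRNA alone, with Wipi1 and Atg2a. It was the lower in 9, namely Atg10, Atg4b, Map1lc3b, Map1lc3a, Atg13, Atg16l1, Atg7, Becn1 and Uvrag. The differences of Atg3, Pik3r4, Atg2a, Uvrag and Sqstm1 were the weakest, with adjusted p from 0.0311 to 0.0467, and each was lost when any 1 of at least 8 arrays was left out (adjusted p = 0.0501 to 0.112). The difference of Atg4d (−0.25, adjusted p = 0.056) passed without NANCI_shRNA replicate 1 (0.0286) or NANCI_control replicate 1 (0.045), without dim probe sets (0.0285) and with array weights (0.031).

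**Figure D3:**
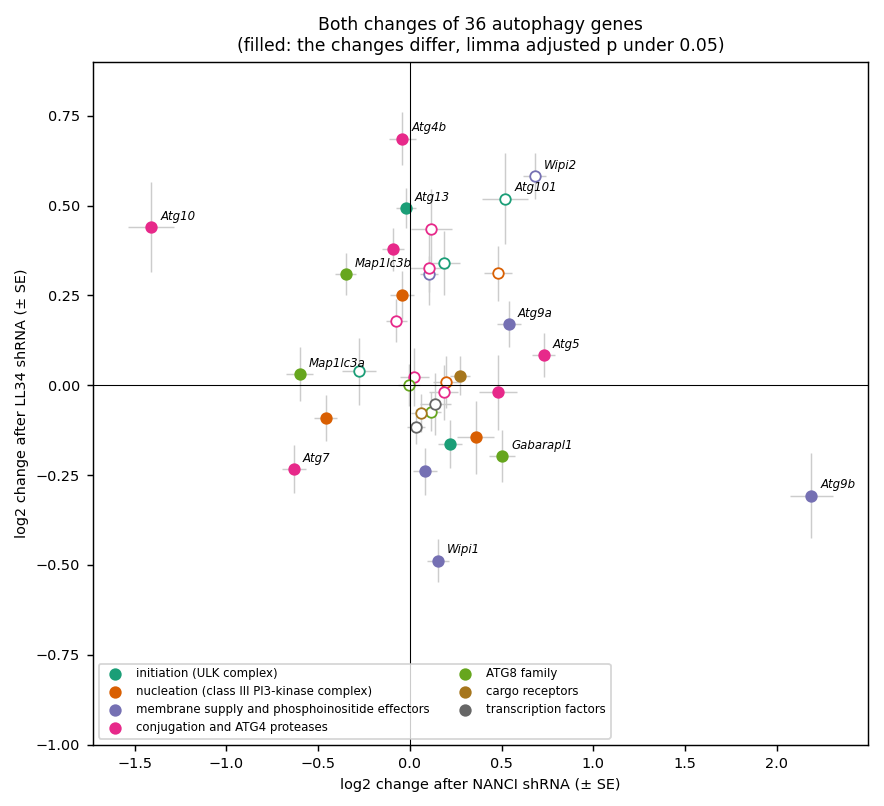
Change after NANCI shRNA (horizontal, log2) against change after LL34 shRNA (vertical, log2) for the 36 measured members, with bars of ±SE; filled points are the 19 members whose 2 changes differ with an adjusted p under 0.05. Wipi2, at 0.68 and 0.58, lies near the line of equal change, and Atg10, at −1.41 and 0.44, far from it.

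The scrambled groups of the 2 sets did not give equal levels. Of 36 members, 23 differed between them (63.9%), against 54.6% of all probe sets, 60.4% of all genes and 58.4% of genes at or above the median level. In the LL34-set scrambled cells 8 were higher and 15 lower, against 8.55% and 46.0% of all probe sets. Set, culture and normalization cannot be told apart here, and the median of all probe sets was itself −0.217. Quantile normalization over all arrays gave 9 members higher and 11 lower, with 39.2% of all probe sets called, and centring each array on its median gave 14 higher and 3 lower, with 43.5% called. The balance moved the same way over all called genes, of which 16.4% were higher as deposited, 45.7% with quantile normalization and 65.1% with centring. In 8 members (Atg16l1, Atg9b, Gabarapl1, Gabarapl2, Nbr1, Rb1cc1, Uvrag and Wipi1) the higher level, and in 3 members (Atg4b, Atg7 and Map1lc3a) the lower level, was called under all 3 scalings. The share of all genes called under all 3 was not taken, so nothing particular to the members is read from these counts. Map1lc3a differed by −0.96 as deposited (adjusted p = 5.06e-06), by −0.87 with quantile normalization (1.03e-05) and by −0.66 with centring (0.00012). Gabarapl1 differed by 0.67 (adjusted p = 3.19e-05), 0.73 (1.63e-05) and 0.97 (1.07e-05).

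Genes around the core machinery also moved in both directions. The 4 lists below, in order, had 51.2%, 47.1%, 66.7% and 53.3% of their measured genes called after NANCI shRNA. After LL34 shRNA the shares were 43.9%, 70.6%, 20% and 53.3%. Of all genes, 26.8% were called after NANCI shRNA and 20% after LL34 shRNA. Of genes at or above the median level, 44.7% and 33.6% were called. The list of upstream nutrient sensing (mTORC1, the kinase complex that restrains ULK1, and AMPK, which activates it) held 41 measured genes, of which 12 rose and 9 fell after NANCI shRNA. Ddit4, a stress-induced inhibitor of mTORC1, rose by 1.23 (SE 0.0826, adjusted p = 2.36e-06) and fell by 0.38 after LL34 shRNA (adjusted p = 0.00826). After NANCI shRNA Rragc, a Rag GTPase, rose by 0.88 (SE 0.0619, adjusted p = 3.12e-06) and Fnip2, a folliculin partner, fell by 0.84 (SE 0.0578, adjusted p = 2.7e-06). After LL34 shRNA 12 rose and 6 fell. Sesn3, a sestrin, fell by 1.39 (SE 0.0789, adjusted p = 2.2e-06), and by 0.58 after NANCI shRNA (adjusted p = 0.000295). In the LL34 set Fnip2 rose by 0.75 (SE 0.0578, adjusted p = 1.24e-05) and Rragd, another Rag GTPase, by 0.92 (SE 0.0834, adjusted p = 3.76e-05), whereas Rragd fell by 0.53 after NANCI shRNA (adjusted p = 0.000844). The changes of Fnip2 differed by −1.60 (adjusted p = 7.58e-07).

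The other genes of autophagosome formation, 17 in number, gave 5 rises and 3 falls after NANCI shRNA and 4 rises and 8 falls after LL34 shRNA. Trp53inp1, a p53-induced protein that binds ATG8 proteins, rose by 1.44 with NANCI shRNA (SE 0.0948, adjusted p = 2.08e-06) and fell by 0.31 with LL34 shRNA (adjusted p = 0.0455). Wdr45b, which encodes the WIPI relative WIPI3, rose by 0.83 there (SE 0.067, adjusted p = 8.09e-06) and fell by 0.50 after LL34 shRNA (SE 0.067, adjusted p = 0.000488), a difference of 1.32 (adjusted p = 5.17e-06). Bcl2, whose product binds Beclin 1, fell by 0.65 with NANCI shRNA (SE 0.07, adjusted p = 5.36e-05) and rose by 0.45 with LL34 shRNA (adjusted p = 0.00114). The endophilin B gene Sh3glb2 fell by 0.94 after LL34 shRNA (SE 0.089, adjusted p = 4.85e-05), and Trp53inp2, a relative of Trp53inp1, by 0.69 (SE 0.0724, adjusted p = 9.82e-05). Trp53inp2 also fell by 0.38 after NANCI shRNA (adjusted p = 0.00295).

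Of 15 measured genes for other receptors and mitophagy, 4 rose and 6 fell after NANCI shRNA, and 3 rose and none fell after LL34 shRNA. The 3 with the smallest p in the NANCI set all fell: Calcoco1, a receptor gene, by 0.89 (adjusted p = 7.56e-06), Ncoa4, the ferritin receptor gene, by 0.52 (adjusted p = 3.84e-05), and Wdfy3, which encodes the large adaptor ALFY, by 0.44 (adjusted p = 0.000362). The 3 that rose with LL34 shRNA were Tollip (0.39, adjusted p = 0.000484), Tex264, an ER-phagy receptor gene (0.26, adjusted p = 0.00506), and Tax1bp1, a ubiquitin-binding receptor gene (0.25, adjusted p = 0.0347). Among 15 genes for fusion with the lysosome, 7 rose and 1 fell with NANCI shRNA, and 5 rose and 3 fell with LL34 shRNA. Stx17, the autophagosomal syntaxin, was the one that fell with NANCI shRNA, by 0.63 (adjusted p = 6.48e-05), and it rose by 0.30 with LL34 shRNA (adjusted p = 0.0132). Ykt6, a SNARE, rose by 0.48 with NANCI shRNA (adjusted p = 0.000857) and by 0.52 with LL34 shRNA (adjusted p = 0.000865). Vps16, a subunit of the HOPS tether, rose by 0.48 after NANCI shRNA (adjusted p = 0.00047) and fell by 0.30 after LL34 shRNA (adjusted p = 0.0126). In the LL34 set, the SNARE gene Vamp7 fell by 0.57 (adjusted p = 0.00256) and the HOPS gene Vps33a rose by 0.40 (adjusted p = 0.0041).

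**Figure D4:**
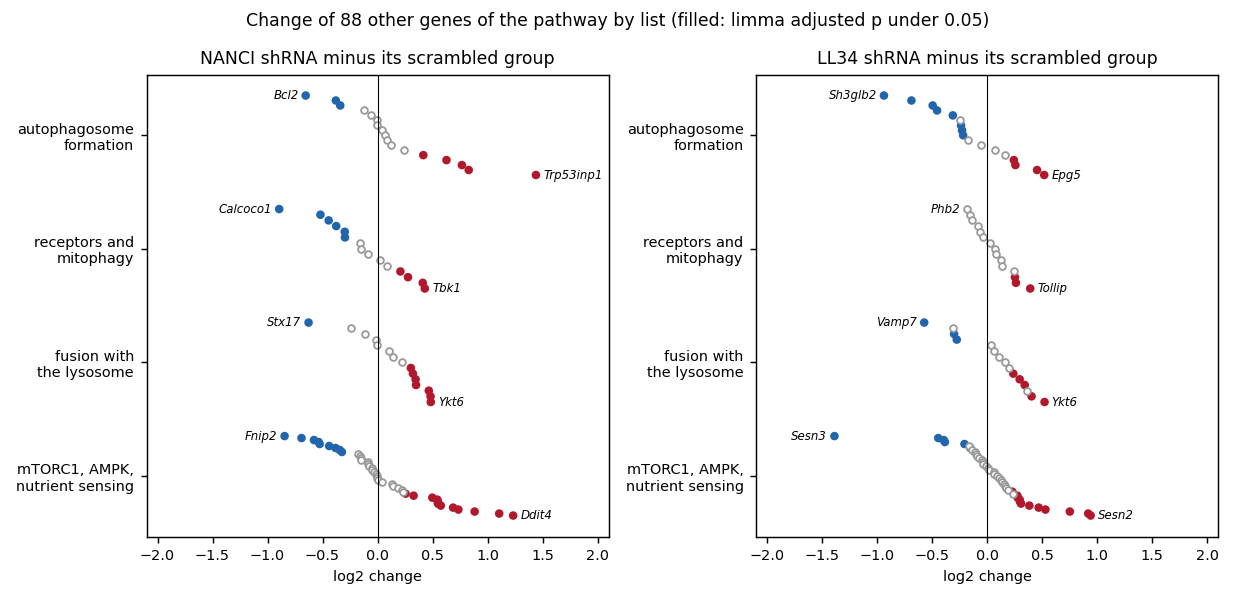
Change in log2 signal after NANCI shRNA and after LL34 shRNA of 88 measured genes in 4 lists around the core machinery; each point is a gene and filled points have an adjusted p under 0.05. Trp53inp1 at 1.44 and Ddit4 at 1.23 are high after NANCI shRNA, and Sesn3 at −1.39 is low after LL34 shRNA.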

How the data were processed

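RNA of 12 MLE12 cultures was measured on Affymetrix arrays. The values are the authors' deposited log2 signals, 1 per probe set and array. Per the submitters' processing notes, the tools included oligo, RMA and limma; versions, annotation and genome build were not given in the sources used here, and GRCm38.p6 serves only for names and RefSeq promoters. Of 41345 probe sets, 23521 had 1 gene symbol, 1814 several and 16010 none, and only the first were named, with symbols updated by Entrez number. limma 3.58.1 (R 4.3.3; lmFit, contrasts.fit, eBayes) was fitted to all probe sets and all 12 arrays with 4 group means (8 residual and 2.84 prior degrees of freedom). SE is the standard error of the fit, SD was not used in the tests, and p-values were adjusted over all 41345 probe sets, threshold 0.05. The code was tested on simulated data. Contrasts were each shRNA group minus its own scrambled group, the difference of these changes, and LL34-set minus NANCI-set scrambled cells. The number of arrays limits the precision. The members and lists were chosen with earlier results of these data known.

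Values on every array are given for Ulk1, Becn1, Atg5, Map1lc3b, Sqstm1, Tfeb and Tfe3, and for the 10 largest called member changes per knockdown; Atg3 was added after its values were seen, for the motifs in its promoter. Other pathway genes were named by smallest p, up to 3 per list and knockdown; 88 of 90 were measured. The alternatives were the replicate number as a block, leaving out each array, quantile normalization over 12 arrays, centring on array medians, a filter on dim probe sets (below the median level), array weights, trend and robust moderation, the mean of a gene's probe sets, the 6 arrays of a set alone, and all 6 scrambled arrays as 1 control group.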

Additional observations from a re-analysis of the deposited data

How the results depend on the processing

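The number of called members after NANCI shRNA, 16 as reported, was 13 to 18 when 1 array was left out and 13 to 18 under the other settings. The called share of all probe sets was 19.9% as reported and 16.2% to 23.1% with 1 array left out. After LL34 shRNA the number of called members was 15, and 8 to 16 when 1 array was left out. It was 8 without LL34_shRNA replicate 1 and without LL34_shRNA replicate 3. In those fits 11.5% and 11.4% of all probe sets were called, against 16.4% as reported. The LL34 count was 11 in a fit of the LL34 set alone, where 11.7% of all probe sets were called. It was 13 to 18 under other settings, and 4 when the 6 scrambled arrays formed 1 control group. Under that control the median of all probe sets was 0.131 for NANCI and −0.106 for LL34, against 0.0101 and 0.0038 as reported, and 15% and 10.4% of all probe sets were called. The difference between the knockdowns was called in 19 members, in 14 to 17 when 1 array was left out, and the scrambled comparison in 23, then 18 to 23. With 1 array left out, 15.8% to 19.6% and 47% to 58.2% of all probe sets were called, against 18.8% and 54.6% as reported. Same-numbered arrays did not deviate together (correlations of −0.125 to 0.045), so the numbers were not taken as pairs. The replicate number as a block gave 15, 15, 14 and 20 member calls, with 18.4%, 14.5%, 17.2% and 53% of all probe sets called. Of the NANCI calls, 9 of 16 passed under all 21 settings (Atg3, Atg5, Atg9a, Atg9b, Atg10, Atg14, Map1lc3b, Sqstm1 and Wipi2), and 1 of 15 LL34 calls, Atg16l1; with the own scrambled group as control they were 13 and 7. Of all 36 members, 7 NANCI calls, 14 LL34 calls, 5 differences and 14 scrambled calls were lost under at least 1 setting, and 3, 4, 4 and 8 members gained a call. In the scrambled comparison 7 members turned sign with a call on at least 1 side. Calls kept, lost, gained or turned were not counted over all genes, so nothing particular to the members is read from them. A value changed sign in 8 members after NANCI shRNA and in 11 after LL34 shRNA, none with a call either way; the cause was not tested. Among the 22 members given on every array, those after NANCI shRNA were Atg13 (−0.023; −0.044 to 0.009 over single arrays left out, the highest without NANCI_shRNA replicate 2, and to 0.135 against all scrambled arrays), Atg4b (−0.041; −0.1 to 0.002, the highest without NANCI_shRNA replicate 3, and to 0.259 against all scrambled arrays) and Wipi1 (0.155 to −0.009 against all scrambled arrays). After LL34 shRNA they were Sqstm1 (0.026; −0.002 to 0.054 over single arrays left out, the lowest without LL34_control replicate 2, −0.002 with quantile normalization, −0.006 with centring and −0.148 against all scrambled arrays), Tfeb (−0.052; −0.136 to 0.017, the highest without LL34_control replicate 3, and 0.017 with array weights), Map1lc3a (0.031; −0.022 to 0.061, the lowest without LL34_control replicate 3, −0.034 with quantile normalization, −0.001 with centring, −0.003 with array weights and −0.451 against all scrambled arrays) and Gabarapl1 (−0.197 to 0.139 against all scrambled arrays).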
